A study of Chlorocebus sabaeus with 3 samples.

Results

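HOX genes are the homeobox transcription factors that tell cells where they lie along the body axis. In mammals they stand in 4 clusters, HOXA to HOXD, and each gene carries a paralog number that follows its place in the cluster. Low numbers are the anterior genes of hindbrain and pharyngeal arches, and high numbers the posterior genes of the hind body, the urogenital tract and the distal limb. Many adult and fetal epithelia, fibroblasts and blood progenitors keep a HOX pattern that reflects their origin. The genes described here are all those whose name in the expression files is HOX followed by a cluster letter and a number, which gave 39 of 33994 listed genes. They comprise 11 genes of HOXA, 10 of HOXB, 9 of HOXC and 9 of HOXD.

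Their transcripts were measured in RNA free of cells from the amniotic fluid of 3 vervet monkey (Chlorocebus sabaeus) pregnancies. The pregnancies were labelled by outcome as stillborn, spontaneous abortion and alive, with 1 library each, and by sex as M, NA and F in that order. Gestational age was not given in the sources used here, and outcome cannot be told apart from sex, animal or library. With 1 library per outcome no test between outcomes is possible, so libraries are set against each other with intervals that cover counting error only. Levels are in RPKM, reads per 1000 bases of gene and 1000000 reads of the library, and series of 3 values are in the order stillborn, spontaneous abortion, alive. The whole reads behind these values were recovered, as a minimum per gene, from libraries of 17749954 (stillborn), 29926352 (spontaneous abortion) and 20220899 (alive) assigned reads. In such a bulk fluid, fewer cells of a type and less RNA per cell cannot be told apart. As the RNA is free of cells, its release and decay cannot be told apart from these either. Defining epithelial genes were present in all 3 fluids (KRT19 at RPKM 316, 434 and 554), as were some fibroblast genes (LUM at 222, 239 and 158). Among other fibroblast genes, PDGFRA was near 0, at 0.0398, 0.0118 and 0.0240, and TWIST2 was listed at 0 throughout.

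HOX transcripts were scarce in every fluid. They held 681, 1281 and 949 reads, or 38.4, 42.8 and 46.9 reads per 1000000 assigned reads. Summed over the 39 genes the level was RPKM 9.11, 10.8 and 12.5. After scaling, the stillborn total was 0.914 times that of the alive library (95% interval 0.827 to 1.01), and the spontaneous abortion total was 0.937 times it (0.861 to 1.02). Both intervals include 1. The call rests on the scaling, since with total assigned reads as the scale the ratios were 0.817 (0.740 to 0.903) and 0.912 (0.838 to 0.993), and both intervals exclude 1. Per gene length, the ratios of the summed RPKM were 0.817 and 0.888 after TMM scaling. At least 10 reads were found for 11, 13 and 11 HOX genes, which is 28.2%, 33.3% and 28.2% of them, against 43.6%, 46.4% and 43.9% of all listed genes. RPKM 1 was reached by 4 HOX genes (10.3%) in each library, against 9945, 10156 and 10215 of the 33994 genes in all.

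The HOXB cluster carried most of this RNA. The 4 genes at RPKM 1 or more were HOXB2, HOXB3, HOXB4 and HOXB7, in all 3 libraries, and they made up 67.7%, 72.2% and 76.1% of the summed HOX RPKM. HOXB reads were 64.6% of all HOX reads in the stillborn library (exact 95% interval 60.9% to 68.2%), 63.7% in that of the spontaneous abortion (61.0% to 66.3%) and 69.4% in the alive one (66.4% to 72.4%). HOXA followed with 23.6%, 29.7% and 25.9%. HOXC held 5.43%, 5.31% and 4.64%. HOXD held 6.31%, 1.33% and 0%, and it is the cluster in which the libraries differed most.

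**Figure D1:**
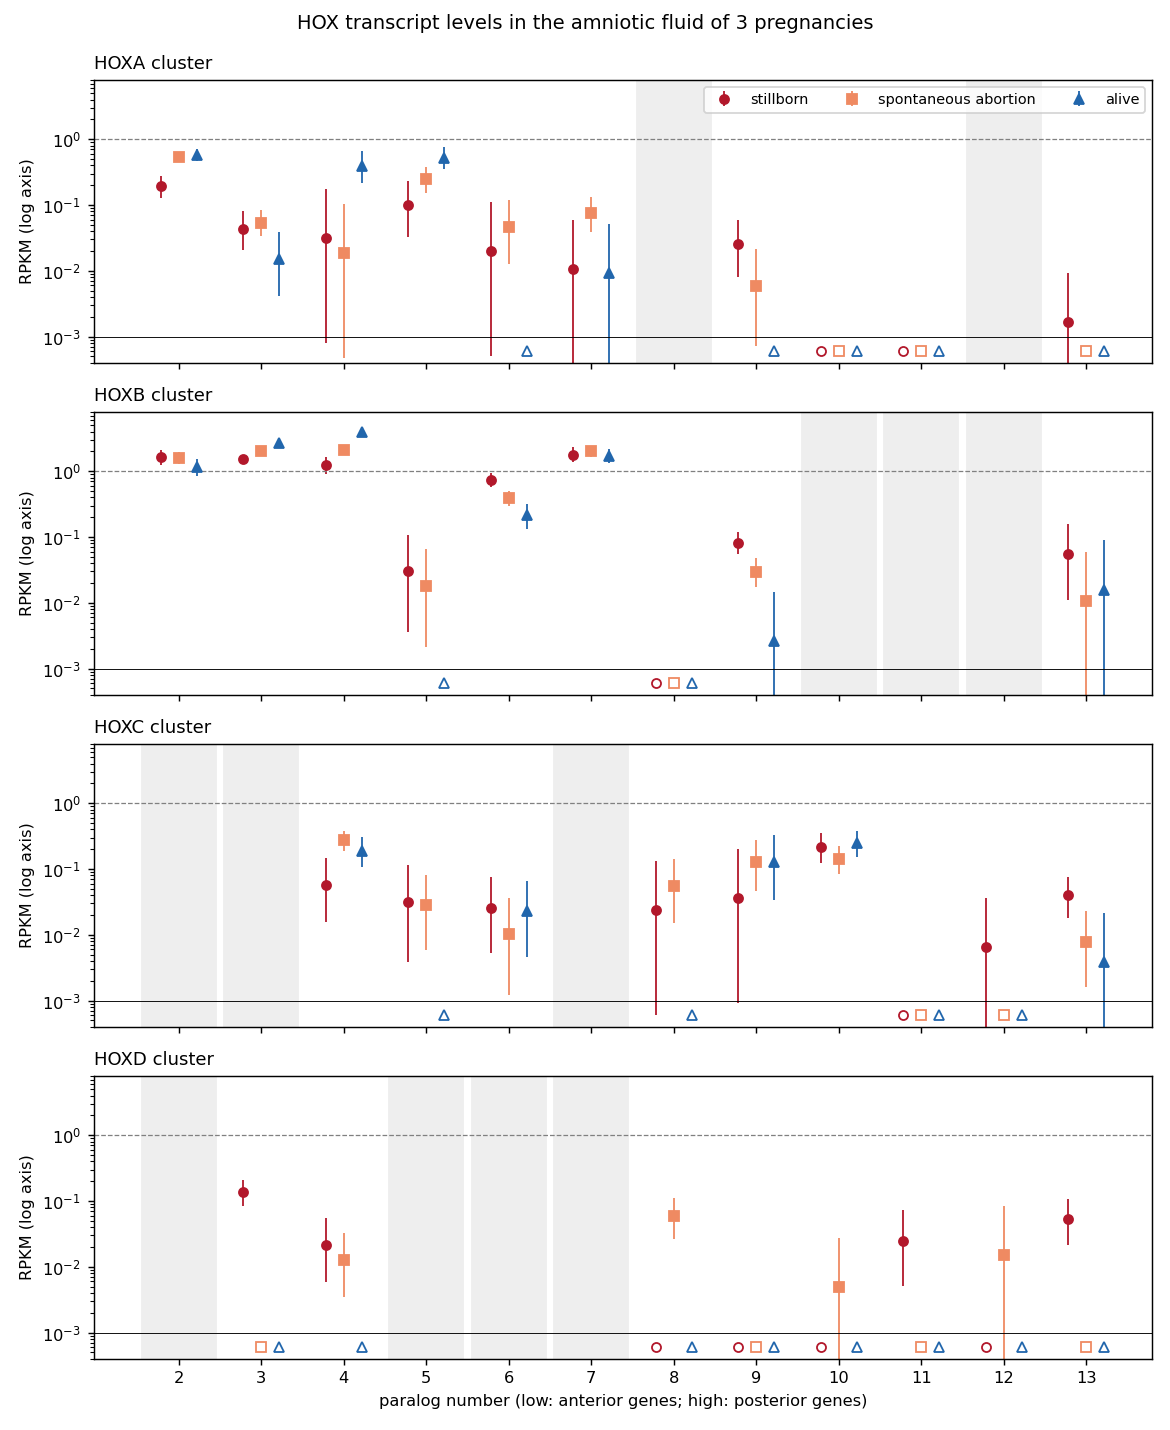
Level of the HOX genes of paralog numbers 2 to 13 in RPKM (log axis), in 1 panel per cluster, for the stillborn (circles), spontaneous abortion (squares) and alive (triangles) library. Bars are exact Poisson 95% intervals of the recovered reads, open symbols under the solid line are genes listed at 0, grey bands are paralog numbers with no gene in that cluster, and the dashed line marks RPKM 1. Only HOXB2, HOXB3, HOXB4 and HOXB7 lie above it, and the HOXD genes shown are listed at 0 in the alive library.

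By position, the RNA came from the anterior and central genes. Genes 1 to 3 held 60.1% (56.3% to 63.8%), 64.6% (61.9% to 67.3%) and 63.5% (60.4% to 66.6%) of HOX reads. Genes 4 to 8 held 29.1%, 31.5% and 33.5% of HOX reads. Genes 9 to 13, the posterior class with 16 members, held 10.9% (8.63% to 13.4%), 3.83% (2.84% to 5.03%) and 2.95% (1.97% to 4.24%). No posterior gene reached 30 reads in any library, against 4 of 8 anterior and 5 of 15 central genes. On the RPKM scale, which takes out gene length, the anterior class was 49.1%, 46.9% and 41.1% of the summed HOX level, the central class 45.0%, 49.9% and 55.8% and the posterior class 5.89%, 3.20% and 3.16%. By that measure the central class, not the anterior one, led in the spontaneous abortion and alive libraries.

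**Figure D2:**
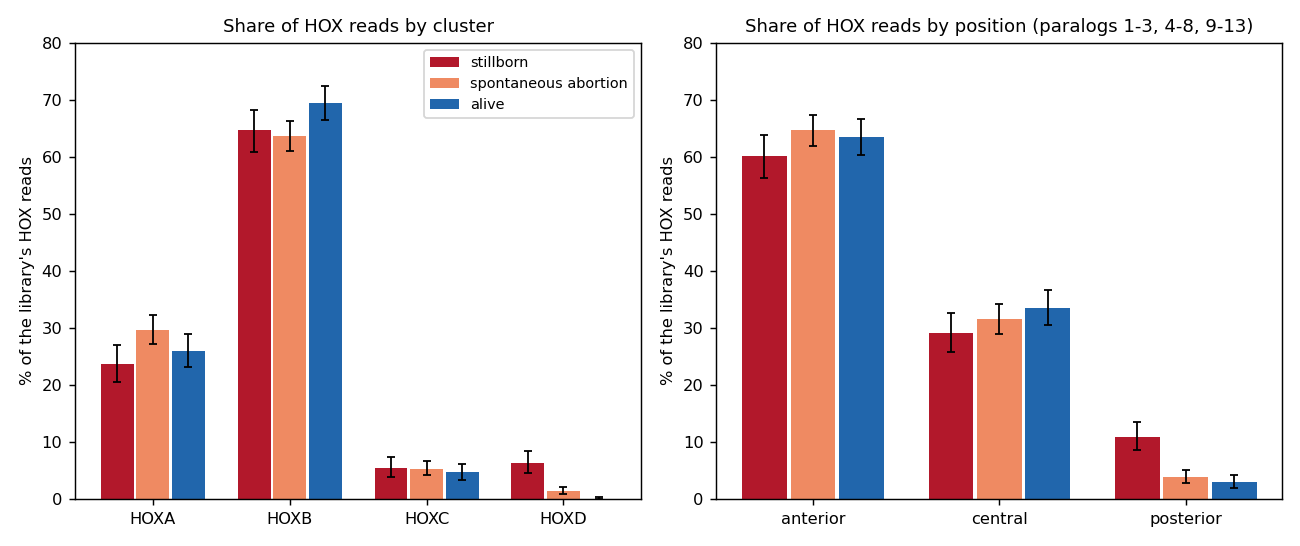
Share of the HOX reads of each library that came from each cluster (left) and from each position class (right), in percent, with exact 95% binomial intervals as bars. HOXB lies between 63.7% and 69.4% in the 3 libraries, and the posterior share of the stillborn library, 10.9%, lies above the 3.83% and 2.95% of the others.

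Of the anterior genes, HOXB1, a hindbrain gene, was listed at 0 throughout and HOXD1 was at RPKM 0.134, 0.0177 and 0, from 9, 2 and 0 reads.

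HOXA2, which patterns the second pharyngeal arch, was at RPKM 0.194, 0.543 and 0.580, from 29, 137 and 99 reads. The stillborn library was the low one. HOXA2 was 2.68-fold lower there than in the alive library (1.76 to 4.21) and 2.58-fold lower than in the spontaneous abortion library (1.72 to 3.99). For spontaneous abortion over alive the ratio was 0.961 (0.737 to 1.26). HOXB2, its HOXB paralog, went the other way, at RPKM 1.64, 1.61 and 1.16, and was 1.57-fold higher in the stillborn than in the alive library (1.05 to 2.36).

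HOXB3 gave more reads than any other HOX gene in each library, 175, 390 and 355, or 25.7%, 30.4% and 37.4% of all HOX reads. Its level was RPKM 1.53, 2.02 and 2.72, and it was 1.59-fold lower in the stillborn (1.33 to 1.92) and 1.31-fold lower in the spontaneous abortion library (1.13 to 1.52) than in the alive one. Its paralogs were far below it. HOXA3, a gene of the pharyngeal pouches, was at 0.0433, 0.0539 and 0.0152. HOXD3 had 20 reads in the stillborn library, at RPKM 0.137, and was listed at 0 in both others. By the lower 95% limit it was at least 6.29-fold higher in the stillborn than in the alive library and at least 9.05-fold higher than in the spontaneous abortion library (8.49 and 12.2 with the 0 taken as 3 reads and no counting error on the 20).

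HOXB4, a central gene known for its activity in blood stem cells, was the highest HOX gene of the alive library and showed the widest spread of the leading 4. Its level was RPKM 1.23, 2.13 and 3.91, from 46, 135 and 167 reads. The 3 values were ordered with no overlap of the counting intervals (0.898 to 1.64, 1.79 to 2.53 and 3.34 to 4.55). HOXB4 was 2.85-fold lower in the stillborn (2.05 to 4.04) and 1.78-fold lower in the spontaneous abortion library (1.41 to 2.25) than in the alive one. It was 1.60-fold lower in the stillborn than in the spontaneous abortion library (1.14 to 2.29).

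The other group 4 genes were low, but HOXA4 shared the high alive value. It stood at RPKM 0.0318, 0.0189 and 0.391, from 1, 1 and 14 reads. Its ratio to the alive library was 0.0910 (0.00215 to 0.598) for the stillborn and 0.0496 (0.00117 to 0.326) for the spontaneous abortion. HOXC4 was at 0.0573, 0.272 and 0.189, from 4, 32 and 15 reads, with the stillborn library low. HOXD4 had 4, 4 and 0 reads. Summed over the 4 clusters, group 4 had 55, 172 and 196 reads and was 0.357 times the alive value in the stillborn (0.260 to 0.484) and 0.609 times in the spontaneous abortion library (0.494 to 0.752). It made up 14.7%, 22.6% and 36.0% of the summed HOX RPKM, and was the largest paralog group in the spontaneous abortion and alive libraries but not in the stillborn one, where group 2 held 20.1%.

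**Figure D3:**
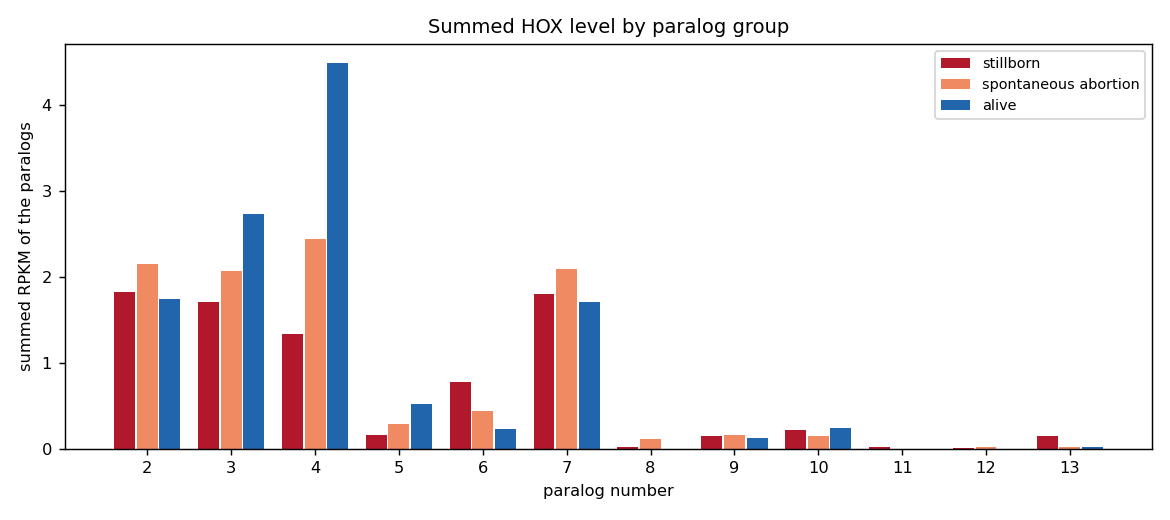
Summed RPKM of the HOX genes of each paralog number from 2 to 13 in the 3 libraries (linear axis). Group 4 runs from 1.34 in the stillborn through 2.44 in the spontaneous abortion to 4.49 in the alive library, while group 6 runs the other way, from 0.783 through 0.442 to 0.235.

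HOXA5, a regulator of fetal lung and trachea, was the member of group 5 with reads to speak of. It had 5, 21 and 30 reads, at RPKM 0.0994, 0.248 and 0.524. The stillborn library was again low and the alive library high. HOXA5 was 4.71-fold lower in the stillborn than in the alive library (1.81 to 15.6) and 2.06-fold lower in the spontaneous abortion library (1.14 to 3.78). HOXB5 and HOXC5 had at most 3 reads in any library.

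HOXB6 reversed this order. Its level was RPKM 0.737, 0.385 and 0.212, from 67, 59 and 22 reads. It was 3.88-fold higher in the stillborn than in the alive library (2.36 to 6.59), 1.86-fold higher in the spontaneous abortion library than in the alive one (1.12 to 3.19) and 2.08-fold higher in the stillborn than in the spontaneous abortion library (1.45 to 3.01). HOXA6 and HOXC6 had at most 4 reads in any library. The neighbouring HOXB7 was the steadiest of the leading genes, at RPKM 1.79, 2.01 and 1.70, and none of its pairwise intervals excluded 1. For stillborn over alive the ratio was 1.18 (0.817 to 1.69). HOXA7 had 1, 12 and 1 reads.

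The HOXB cluster therefore held opposite orders side by side. Since HOXB4 and HOXB6 were read in the same libraries, their ratio does not depend on how libraries are scaled. The pair was chosen after its values were seen. Per length, HOXB4 was 1.66 (1.12 to 2.46), 5.54 (4.05 to 7.66) and 18.4 times HOXB6 (11.8 to 30.1). HOXB3 over HOXB2, chosen likewise, was 0.934 (0.690 to 1.28), 1.26 (1.003 to 1.59) and 2.34 (1.72 to 3.24). Summed HOXB reads were 0.850 times the alive value in the stillborn (0.752 to 0.961), but without HOXB3 the ratio was 1.11 (0.938 to 1.31). As summed RPKM, the ratio was 0.814 with HOXB3 and 0.887 without it. In the annotation of the RefSeq assembly mChlSab1.0.hap1, 15 of the 39 HOX genes overlap another HOX gene, and HOXB3 overlaps HOXB4, HOXB5 and HOXB6. HOXA5 overlaps HOXA3 and HOXA6, HOXA4 overlaps HOXA3, HOXC4 overlaps HOXC5, HOXC6, HOXC8 and HOXC9, and HOXD3 overlaps HOXD4. How reads in overlaps were assigned was not given in the sources used here, so reads of such neighbours cannot be told apart.

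The order of levels within each library was clear only in part. In the stillborn library HOXB7, HOXB2, HOXB3 and HOXB4 followed each other with no step beyond counting error. In the spontaneous abortion library HOXB4, HOXB3, HOXB7 and HOXB2 likewise followed each other with no step beyond counting error. Over more than 1 step, HOXB3 lay above HOXB2 there (1.26, 1.003 to 1.59). In the alive library HOXB4 lay above HOXB3 (RPKM 2.72), and HOXB3 above HOXB7 (1.70), each by more than counting error.

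Posterior genes were few in reads, and the stillborn library held the most. Together they had 74, 49 and 28 reads, although the stillborn library was the smallest. Their summed reads were 3.37-fold higher in the stillborn than in the alive library (2.15 to 5.40) and 2.77-fold higher than in the spontaneous abortion library (1.90 to 4.06). Read sums weigh long genes more. Per length the sums were RPKM 0.537, 0.344 and 0.394, and after scaling the folds were 1.52 and 1.69. For spontaneous abortion over alive the ratio was 1.22 by reads (0.749 to 2.01) and 0.898 by summed RPKM, so its direction depends on the measure.

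Among them, HOXB9 was at RPKM 0.0824, 0.0297 and 0.00258, from 28, 17 and 1 reads. The stillborn to alive ratio was 35.7 (5.89 to 1458) and the spontaneous abortion to alive ratio 11.8 (1.85 to 493). HOXC13, a regulator of hair and nail keratins, had 9, 3 and 1 reads, and its stillborn to alive ratio was 11.5 (1.59 to 502). HOXD13, the gene of digits and external genitalia, had 7 reads in the stillborn library and was listed at 0 in both others. HOXB13, known from prostate and hindgut, had 3, 1 and 1 reads. Group 13 as a whole had 20, 4 and 2 reads. HOXC10 was the posterior gene with the highest level and did not share this pattern, at RPKM 0.213, 0.142 and 0.246 from 16, 18 and 21 reads.

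The HOXD cluster had 43, 17 and 0 reads. By the lower 95% limit it was at least 14.2-fold higher in the stillborn library and at least 2.87-fold higher in the spontaneous abortion library than in the alive one (18.3 and 3.94 with the 0 taken as 3 reads over the cluster). Between the stillborn and spontaneous abortion libraries the fold was 4.64 by reads (2.59 to 8.67) and 3.71 by summed RPKM, and by reads without HOXD3, the member with the most, it was 2.48. HOXD3 (20 reads), HOXD13 (7) and HOXD11 (3) were listed at 0 outside the stillborn library, and HOXD8 (9 reads), HOXD10 (1) and HOXD12 (1) outside the spontaneous abortion library. For HOXD10, HOXD11 and HOXD12 the interval between these libraries includes 1. HOXD1 and HOXD4 had reads in both. A count of 0 in the alive library, taken as 3 reads, allows up to 0.148 reads per 1000000 assigned reads. A different limit, the upper end of the exact 95% interval, allows a share of up to 0.388% of its HOX reads.

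More HOX genes were listed at 0 in the alive library than in the others. Reads were found for 30 (76.9%), 28 (71.8%) and 18 (46.2%) of the 39 HOX genes, against 58.4%, 62.8% and 57.5% of all genes. Of the 33 HOX genes with a read anywhere, 15 (45.5%) were listed at 0 in the alive library, 3 in the stillborn and 5 in the spontaneous abortion library. Among all genes with a read anywhere, the shares listed at 0 were 16.0% in the alive, 14.8% in the stillborn and 8.32% in the spontaneous abortion library. Most of these genes have more reads than HOX genes. Of genes with at most 20 reads in any library, 71.4% of 21 HOX genes were listed at 0 in the alive library, against 43.2% of 8252 genes. In the stillborn library the shares were 14.3% and 40.3%, and in the spontaneous abortion library 23.8% and 22.8%. The limit of 20 is the most reads that any of the 15 genes had, so it keeps all of them. It leaves out HOXA3 and HOXC10, which had at most 21 reads and had reads in the alive library. These shares therefore depend on the genes they describe and are not read as evidence. These 15 genes held 56 stillborn and 32 spontaneous abortion reads, 14 of them had fewer than 10 reads in any library, and 8 were HOXD genes. When reads were thinned to the depth of the stillborn library, 30, 24 and 17 HOX genes still had a read. Of all 33994 genes, 19776, 20255 and 19290 did. In none of the libraries was a read assigned to HOXA10, HOXA11, HOXB1, HOXB8, HOXC11 or HOXD9. For each, this allows up to 0.169, 0.1002 and 0.148 reads per 1000000.

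Gene by gene, few HOX transcripts passed the limits used across all genes. A gene was counted as apart when 2 libraries differed at least 4-fold, the interval excluded 1 and the higher library had at least 30 reads. For stillborn against alive, 1 of 8 HOX genes with enough reads was apart as lower (HOXA5) and 0 as higher, where 3.23% and 4.69% of 13452 genes were. For spontaneous abortion against alive, 0 of 9 were apart in either direction, where 2.3% were as higher and 1.5% as lower. For stillborn against spontaneous abortion, 1 of 8 was apart as lower, HOXC4 at 4.36-fold (1.55 to 17.0), and 0 as higher, where 1.65% and 2.82% of genes were. After the same thinning HOXA5 had 28 reads in the alive library and HOXC4 had 15 in the spontaneous abortion library, under the limit, and both counts were 0. Both genes overlap other HOX genes, as given above. With 8 or 9 HOX genes able to pass, 1 call is not read as a departure from the background.

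Intervals alone, which cover counting error only, excluded 1 more often. For stillborn against alive this held for 3 of 8 HOX genes as higher (37.5%), HOXB2 and HOXB6 among them, against 37.1% of all genes. As lower it held for 4 of 8 (50%), HOXA2, HOXA5, HOXB3 and HOXB4, against 38.7%. For spontaneous abortion against alive it held for 2 of 9 as higher (22.2%), HOXB6 among them, against 34.5%. As lower it held for 3 of 9 (33.3%), HOXA5, HOXB3 and HOXB4, against 33.4%. For stillborn against spontaneous abortion it held for 1 of 8 as higher (12.5%, HOXB6), against 31.7%. As lower it held for 4 of 8 (50%), HOXA2, HOXB3, HOXB4 and HOXC4, against 36.1%. With 8 or 9 genes able to pass, these counts are not read as a departure from the background.

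At a limit of 2-fold, HOXB6 was higher in the stillborn than in the alive library, 1 of 8 genes (12.5%, background 13.1%). HOXA2, HOXA5 and HOXB4 were lower, 3 of 8 (37.5%, background 12.5%). For spontaneous abortion against alive, HOXA5 was lower, 1 of 9 genes (11.1%), and 0 HOX genes were higher, against 5.69% and 7.68%. For stillborn against spontaneous abortion, HOXB6 was higher, 1 of 8 (12.5%, background 7.53%). HOXA2 and HOXC4 were lower, 2 of 8 (25%, background 7.49%). The comparisons against the alive library share that library. At 4-fold and at least 10 reads, 14 HOX genes had enough reads in each pair. HOXB9 and HOXD3 were higher and HOXA4 and HOXA5 lower in the stillborn than in the alive library (14.3% each, background 7.21% and 4.5%). By that limit HOXA7 and HOXB9 were higher in the spontaneous abortion library than in the alive one (14.3%, background 3.91%). HOXA4 was lower (7.14%, background 3.05%). HOXD3 was higher and HOXC4 lower in the stillborn library than in that of the spontaneous abortion (7.14% each, background 4.57% and 2.56%).

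**Figure D4:**
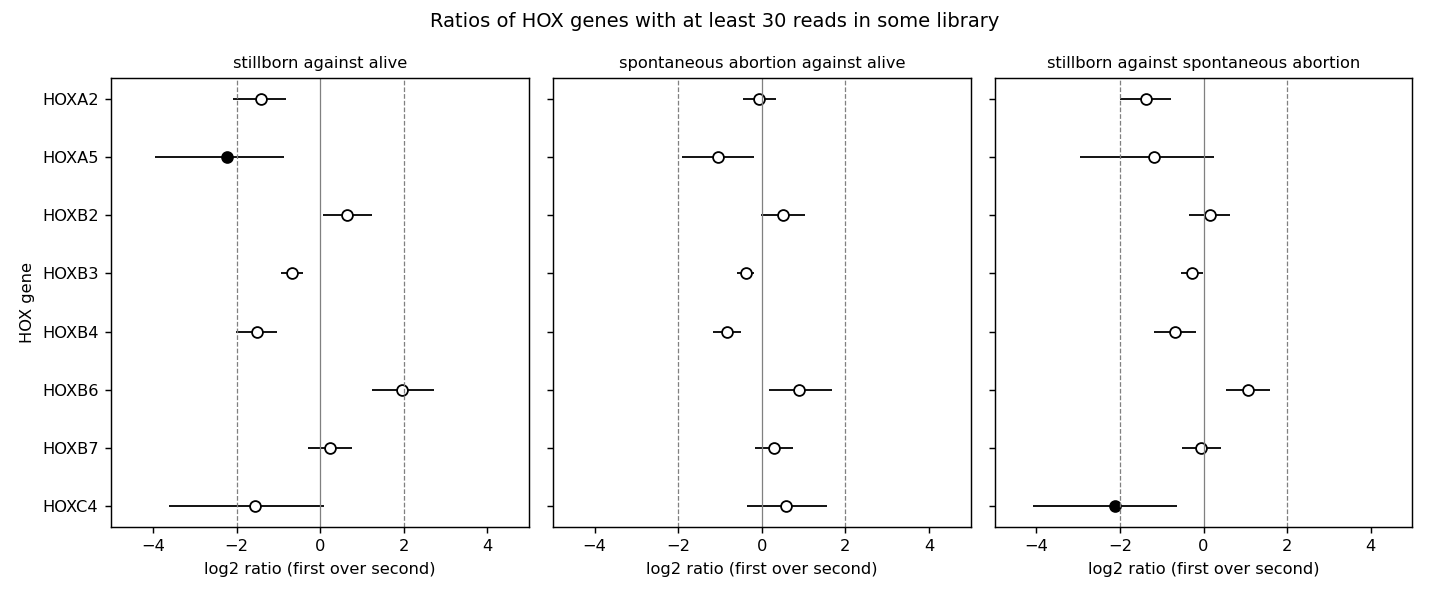
Log2 ratio of 8 of the 9 HOX genes with at least 30 reads in some library, for the 3 pairs of libraries, with exact 95% intervals of counting error. Dashed lines mark 4-fold and filled points are genes counted as apart, HOXA5 for stillborn against alive and HOXC4 for stillborn against spontaneous abortion. HOXB4 and HOXB6 lie on opposite sides of 0 in every panel.

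Other transcripts of the clusters were as scarce. In the same RefSeq assembly, 12 further genes lie within the HOX clusters, and 4 of them have a row in the files. The long non-coding RNA LOC103243615, next to HOXB2 and HOXB3, had 2, 12 and 7 reads. LOC103243610, between HOXB3 and HOXB4, had 1, 4 and 1 reads, LOC103226322, beside HOXA3 and HOXA4, had 3, 0 and 0, and PRAC2, a gene near HOXB13, was listed at 0.

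The partners of HOX proteins were far more abundant than the HOX genes. The PBX, MEIS and PKNOX proteins are homeodomain cofactors of the TALE class that bind DNA together with HOX proteins, and their 9 genes together stood at RPKM 80.2, 104 and 114. PBX2 led at 39.9, 58.8 and 60.8, followed by PBX3 at 20.6, 13.6 and 11.4 and MEIS2 at 6.04, 10.2 and 10.8. MEIS3 was at 0.737, 2.95 and 6.69 and was the 1 cofactor of 8 with enough reads to be apart, as lower in the stillborn than in the alive library, where 3.23% of all genes were. The median log2 ratio of the 8 cofactors at RPKM 1 or more was -0.63 for stillborn over alive, -0.22 for spontaneous abortion over alive and -0.45 for stillborn over spontaneous abortion. Over all 10229 genes at that level it was -0.01, -0.01 and -0.02, and over the 4 HOX genes there it was -0.21, -0.05 and -0.16.

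Regulators of HOX chromatin were present in all fluids. Polycomb complexes keep silent HOX genes off, with PRC2 writing methylation of histone H3 lysine 27 and PRC1 binding it, and trithorax complexes keep active ones on. None of the 11 PRC2, 14 PRC1, 12 trithorax and demethylase, and 6 CTCF and cohesin genes with enough reads was apart in any pair. RBBP7, the PRC2 histone chaperone, was at RPKM 11.0, 20.6 and 22.2, and BMI1 of PRC1 at 8.99, 7.28 and 5.69. KMT2A, the trithorax methyltransferase of HOX genes, was at 6.17, 8.87 and 9.40, and RAD21 of cohesin at 22.3, 39.9 and 47.5. Median log2 ratios for stillborn over alive were -0.27 for PRC2, 0.16 for PRC1, -0.52 for trithorax and demethylases and -0.57 for CTCF and cohesin. For spontaneous abortion over alive they were -0.00, 0.19, -0.15 and -0.11. For stillborn over spontaneous abortion they were -0.41, -0.23, -0.32 and -0.46.

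Retinoic acid, the vitamin A product that switches on anterior HOX genes in the embryo, was represented by its binding and synthesis genes. CRABP2, a retinoic acid carrier, was at RPKM 17.0, 27.1 and 33.0, and DHRS3, which returns retinal to retinol, at 58.7, 35.9 and 38.4. The synthetic enzymes ALDH1A1 (0.364, 0.777 and 1.80) and ALDH1A3 (0.534, 1.02 and 2.42) were apart as lower in the stillborn than in the alive library, 2 of 13 genes with enough reads, where 3.23% of all genes were, and 0 were apart in the other pairs. The median log2 ratio of the 7 genes at RPKM 1 or more was -0.79 for stillborn over alive (-0.37 over all genes of the list), -0.24 for spontaneous abortion over alive and -0.35 for stillborn over spontaneous abortion. Of the caudal factors that act upstream of posterior HOX genes, CDX1 was at 0.934, 1.03 and 0.935 and CDX2 at 0.654, 1.08 and 1.07. PDX1, the pancreatic and duodenal ParaHox gene, had 0, 41 and 5 reads and was apart as higher in the spontaneous abortion than in both other libraries. It was 1 of 3 caudal and ParaHox genes with enough reads in either pair. Of all genes, 2.3% were higher there than in the alive library, and 1.65% were lower in the stillborn library than there. None of the 7 homeobox genes linked to HOX clusters had 30 reads, with MEOX2 at 1, 12 and 21 reads the highest. Of the axial signals, WNT5A was at 6.05, 6.53 and 3.21, GDF11, which favours posterior HOX genes, was at 0.388, 0.540 and 0.839, and 0 were apart.

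Genes of regions with known HOX codes, and of cells that use HOX genes, differed between the libraries in part. Of the limb list, PITX1, the hindlimb factor, had 70, 29 and 7 reads and MSX1 56, 17 and 11. Both were apart as higher in the stillborn library than in either other, while MSX2 was at RPKM 11.7, 14.9 and 20.8. PITX1 and MSX1 were 2 of 4 genes with enough reads against the alive library (4.69% of all genes). Against the spontaneous abortion library they were 2 of 5 (2.82%). Of the urogenital list, SIX2 (11, 15 and 71 reads) and SALL1 (7, 2 and 55 reads), both of nephron progenitors, were apart as lower in either loss than in the alive library. They were 2 of 7 genes with enough reads for the stillborn (3.23% of all genes) and 2 of 8 for the spontaneous abortion (1.5%). GATA3 was at RPKM 46.3, 61.1 and 48.8 and the bladder uroplakin UPK1B at 26.5, 20.3 and 13.2. The other uroplakins of the list were low, and lower in the stillborn than in the alive library. UPK2 was at 1.78, 1.82 and 2.79, where the interval includes 1, and UPK3A at 0.0599, 0.195 and 0.193. UPK1A had 0, 1 and 21 reads. Craniofacial and forebrain homeobox genes, which belong to regions anterior to HOX expression, summed to only 0.411, 0.494 and 0.302. DLX5 was apart as higher in the spontaneous abortion library than in the alive one, 1 of 2 with enough reads (2.3% of all genes).

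Marker levels of other cells moved beside these HOX differences, and their part in them was not tested. Of 13 leukocyte genes, 2, 1 and 3 reached RPKM 1, their sum was 17.8, 5.20 and 8.18, and 3, 4 and 4 were listed at 0, among them the lymphocyte genes CD3E, CD2 and MS4A1 in all libraries. PTPRC was apart as higher in the stillborn than in either other library, TYROBP as higher in the stillborn than in the spontaneous abortion library, and GATA2 as higher in the spontaneous abortion library than in the alive one. FLT3, of blood progenitors, had 42, 5 and 344 reads, so that it was apart in all 3 pairs and highest in the alive library. Of the same list, CD34 (23, 19 and 0 reads), KIT (16, 61 and 21) and GATA2 (12, 39 and 2) were not highest there. SPI1 (9, 4 and 16) and CD79A (2, 0 and 7) were. For stillborn against alive, 1 of 5 genes with enough reads was apart as higher and 1 as lower (4.69% and 3.23% of all genes). For spontaneous abortion against alive, 1 of 6 was higher and 1 lower (2.3% and 1.5%). For stillborn against spontaneous abortion, 3 of 7 were higher and 0 lower (2.82% and 1.65%). The 9 epithelial genes summed to 2253, 3117 and 3417, of which WFDC2 was 1737, 2378 and 2545, while EPCAM (12.5, 5.69 and 5.97), CDH1 (5.73, 6.82 and 4.22) and TP63 (0.316, 0.142 and 0.143) were higher in the stillborn than in the alive library. KRT14, a keratin of basal epidermis, was at RPKM 31.7, 9.64 and 3.78. It was apart as higher in the stillborn than in the alive library, 1 of 9 genes with enough reads (4.69% of all genes). KRT5 went the other way, at 49.1, 151 and 151. KRT8 (11.4, 21.8 and 29.8), KRT18 (90.4, 110 and 124) and KRT19 were also lower in the stillborn than in the alive library. The 10 fibroblast genes summed to 304, 337 and 242, of which LUM was 222, 239 and 158. LUM and COL1A2 (39.5, 32.4 and 17.6) were higher in the stillborn than in the alive library. DCN (13.8, 20.9 and 22.0) and PDGFRB (0.167, 0.169 and 0.622) were lower. THY1 was apart as lower in the stillborn than in the alive library, 1 of 7 with enough reads (3.23% of all genes). Urogenital genes summed to 75.6, 84.5 and 67.9, of which GATA3 was 46.3, 61.1 and 48.8 and UPK1B 26.5, 20.3 and 13.2.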

How the data were processed

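Amniotic fluid supernatant of 3 pregnancies was sequenced on a HiSeq2500 after amplification of cDNA, per the labels' protocols. Tools named in the submitters' processing notes are bcl2fastq 2.17, HTSeq and STAR. For the latter pair the versions, and likewise the genome build, annotation, strand setting and RPKM step, were not given in the sources used here. Deposited values are RPKM, 1 per gene and library. Values were whole multiples of 1 read per gene, and the whole totals and gene lengths that make them so were solved for (Python 3.11.15, numpy 2.4.6, scipy 1.17.1). This gave whole reads for 99.7% of the 23276 genes above 0 and for all 39 HOX genes. A multiple shared by a gene's reads in all libraries would go unseen, so these are minimum numbers. They summed to 96.0% to 96.7% of the totals, and the steps were tested on simulated data.

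Libraries were scaled by trimmed mean of M-values (TMM, factors 0.937, 1.02 and 1.05 for stillborn, spontaneous abortion and alive). Ratios have exact Clopper-Pearson 95% intervals given the sum of both read numbers. Amplified reads without molecular identifiers are not independent molecules, so intervals and limits for 0 reads (taken as 3) cover counting error only. List medians use log2(RPKM + 0.1), which understates ratios of low genes, over genes at a mean RPKM of at least 1. Named are HOX genes that were apart, at RPKM 1 or more, highest in their cluster or listed at 0. Others were added for a pattern in their values. Of the lists, members that were apart or among the 4 highest are named, with some others set beside them. The HOX genes and lists were chosen with earlier results of these data known. All 39 HOX names were found in the RefSeq table of mChlSab1.0.hap1, used for names and neighbours only. STAG2, CYP26C1 and TBXT were not analysed here, and some genes that the naming rule covers are not reported here. Alternatives were other scalings, fold and read limits, thinning, pseudocount and filter.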

Additional observations from a re-analysis of the deposited data

How the results depend on the processing

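Another scaling multiplies all genes of a pair by 1 factor, so it can turn the direction only of values near 1. HOXC stillborn over alive was 1.07 by TMM and 0.958 by total assigned reads, and by median of ratios HOXB and HOXC stillborn over spontaneous abortion were 1.0003 and 1.009, from 0.989 and 0.998. With total assigned reads as the scale, the median log2 ratio of all genes was -0.17 for stillborn over alive and -0.14 for stillborn over spontaneous abortion, and the summed HOX ratio for stillborn over alive was 0.817 in place of 0.914. Counts of HOX genes apart moved with the limits. At 2-fold they were 1 higher and 3 lower of 8 for stillborn against alive, and 1 lower of 9 for spontaneous abortion against alive. They were 1 higher and 2 lower of 8 for stillborn against spontaneous abortion. The shares of all genes are given above. With 10 reads in place of 30 they were 2 and 2, 2 and 1, and 1 and 1, of 14 genes in each pair. After thinning to the smallest total the counts of 1 lower in the stillborn library became 0 in both pairs, because HOXA5 and HOXC4 then had fewer than 30 reads. With 3 reads in place of 10, 21, 20 and 14 HOX genes were detected (stillborn, spontaneous abortion, alive), from 11, 13 and 11. Without the member with the most reads, stillborn over alive became 0.456 for HOXA, 1.11 for HOXB (reversed, from 0.850) and 9.76 for HOXD, spontaneous abortion over alive 0.973 for HOXB, and stillborn over spontaneous abortion 0.491 for HOXA, 1.14 for HOXB and 2.48 for HOXD. Summed RPKM in place of summed reads, an alternative chosen after seeing the data, gave for stillborn over alive 0.817 for all HOX genes, 0.637 for HOXA, 0.659 for the central and 1.52 for the posterior class (from 3.37). It gave 0.855 for HOXA (from 1.07) and 0.898 for the posterior class (from 1.22) for spontaneous abortion over alive, and 1.69 for the posterior class (from 2.77) for stillborn over spontaneous abortion. Among the list medians, that of the retinoic acid genes for stillborn over alive was -0.37 without the filter on low values (from -0.79), that of PRC1 0.004 by total assigned reads (from 0.16), and that of the fibroblast genes -0.02 by total assigned reads (from 0.14). For stillborn over spontaneous abortion the fibroblast median was 0.006 without the filter (from -0.40). No paired analysis was possible because each status has 1 sample. Depth limits most HOX genes, since 24 of the 39 never exceeded 9 reads.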
